A study of Homo sapiens with 33 samples.

Results

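Transcript levels of 10 BCL2 family apoptosis genes were examined in K562 cells, a human erythroleukemia line that carries the BCR-ABL1 fusion. The members comprised the anti-apoptotic genes BCL2, BCL2L1, MCL1 and BCL2A1, the effectors BAX and BAK1, and the BH3-only genes BCL2L11, BID, BAD and BBC3. They were taken by symbol from a gene table of 58293 entries, and all 10 had exactly 1 entry in it. The table holds FPKM (mapped fragments scaled to transcript length and to library size) of wild-type K562 RNA used as the input of EZH2 RNA immunoprecipitation, sequenced as 1 library. Reads on EZH2 RIP-seq fragments, that is RNA fragments enriched with an antibody against EZH2, the enzymatic subunit of PRC2, were also available for cytoplasmic, nuclear, nuclear polyA+ and nuclear polyA- RNA of wild-type K562 cells, with 1 library each. The other samples of the series were not analysed here. The labels call the input total RNA, whereas the immunoprecipitation itself was done on nuclear lysates of formaldehyde-fixed cells, and from which of these preparations the input was taken is not given in the sources used here.

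BCL2 family proteins decide whether the outer mitochondrial membrane is opened during apoptosis. The effectors BAX and BAK form pores in that membrane, through which cytochrome c reaches the cytosol and triggers caspase activation. Anti-apoptotic members hold the effectors and the BH3-only proteins in check by binding their BH3 segment, and BH3-only proteins such as BIM and PUMA (encoded by BCL2L11 and BBC3) relay stress signals by occupying the anti-apoptotic proteins or by activating the effectors. In BCR-ABL1 leukemia, signalling through STAT5 is known to raise BCL2L1 transcription, and MCL1 is known for the rapid turnover of its protein.

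MCL1 and BCL2L1 had the highest levels of the 10 members in K562 input RNA, while the founding member BCL2 was near the bottom of the order and BCL2A1 was listed at 0. Within the 10 members, the BH3-only gene BID came next after them, and both effectors lay below it. The level of 7 of the 10 members was 1 FPKM or more, against 21.8% of all table entries and 49.2% of the 19757 entries that are protein-coding in GENCODE. The median FPKM of the members was 3.54, beside 0.902 over protein-coding entries and 7.49 over the 9728 protein-coding entries with an FPKM of at least 1. With 1 library there is no replicate error. The confidence bounds deposited with each FPKM (95% by the convention of cuffdiff) cover the estimate within this library, and they are given in parentheses. The read depth of this library is unknown.

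Among anti-apoptotic genes, MCL1, whose product sequesters BAK and BIM, had an FPKM of 33.3 (30.9 to 35.7). It ranked 976th among protein-coding entries, above 95.1% of them. The gene was listed on chromosome 1 from 150574551 to 150579738, coordinates that like all others here are on GRCh38. BCL2L1, which encodes BCL-XL, had an FPKM of 22.3 (19.0 to 25.7) and lay on chromosome 20 from 31664452 to 31723989, above 91.5% of protein-coding entries. The ratio of MCL1 to BCL2L1 was 1.49 (1.26 to 1.76) and their bounds did not overlap. BCL2, whose product guards mitochondria in many lymphoid cells, had an FPKM of 0.411 (0.159 to 0.664) on chromosome 18 from 63123346 to 63320128, the longest span of the 10 members with 196783 bp. The level of MCL1 was 80.9 times that of BCL2 (43.6 to 150) and the level of BCL2L1 was 54.3 times that of BCL2 (28.9 to 102). Both intervals are approximate, because the bounds of BCL2 are wide relative to its FPKM. The lower bound of BCL2 alone would give ratios above the upper ends of these intervals. BCL2A1 on chromosome 15 (79960889 to 79971446), an NF-kB target of myeloid and lymphoid cells, was listed at 0 with both bounds at 0, as were 2341 of the protein-coding entries, so no fold was computed against it.

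Among the effectors, BAX, whose product moves from the cytosol to mitochondria on activation, had an FPKM of 4.22 (2.21 to 6.22) on chromosome 19 from 48954815 to 48961798. BAK1, whose product resides in the mitochondrial membrane, had an FPKM of 1.94 (1.44 to 2.44) on chromosome 6 from 33572547 to 33580293. The ratio of BAX to BAK1 was 2.17 (1.26 to 3.74), although the bounds of both genes overlapped. BAX lay above 66.4% and BAK1 above 56.7% of protein-coding entries. The pseudogenes BAK1P1 and BAK1P2 were both listed at 0.

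Among the BH3-only genes, BID, which caspase-8 cleaves to link death receptors to mitochondria, had an FPKM of 11.1 (8.28 to 14.0) on chromosome 22 from 17734138 to 17774770. BCL2L11, encoding BIM, had an FPKM of 5.43 (3.12 to 7.75) on chromosome 2 from 111119378 to 111168447. BBC3, encoding PUMA, had an FPKM of 2.86 (2.05 to 3.67) on chromosome 19 from 47220822 to 47232766. BAD, a sensor of growth factor signalling, had an FPKM of 0.814 (0 to 1.75), with the bounds reaching 0, on chromosome 11 from 64269830 to 64284704. BID was 2.05 times as high as BCL2L11 (1.25 to 3.37), 3.90 times as high as BBC3 (2.66 to 5.71) and 2.64 times as high as BAX (1.54 to 4.54).

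**Figure D1:**
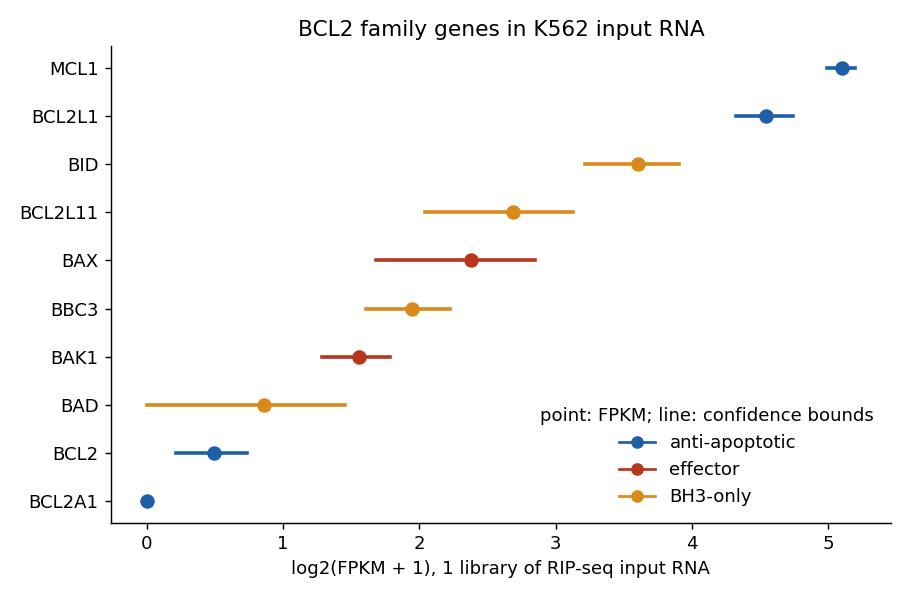
FPKM of the 10 BCL2 family genes in 1 library of K562 input RNA, ordered by level, on the scale of log2(FPKM + 1). Points give the FPKM and lines the deposited confidence bounds. MCL1, BCL2L1 and BID stand apart from their neighbours, whereas the lines from BCL2L11 down to BCL2 overlap from each gene to the next.

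Going down the order from MCL1, the genes BCL2L1, BID and BCL2L11 were each set apart from the next gene above by bounds that did not overlap. From BCL2L11 through BAX, BBC3, BAK1 and BAD to BCL2, each gene had bounds that overlapped with those of its neighbour, and the difference between neighbours exceeded their combined error only for BAK1 and BAD. BCL2A1, listed at 0 without a width, came last. Precision differed between members. The upper bound of MCL1 lay 7.24% above its FPKM, narrower than the median of 11.0% over the 648 protein-coding entries within 1.25-fold of its FPKM. The upper bound of BAX lay 47.6% above its FPKM, beside a median of 27.5% over 1292 entries of like level, of which 95.5% had narrower bounds. BCL2L11 and BID were also wide for their level, at 42.6% and 25.7%, and 97.3% and 94.3% of the entries of like level were narrower. BCL2L1 lay nearer to its peers, at 15.0% beside a median of 12.7%. FPKM were given per gene, so isoforms of opposite function, such as the long and short products of BCL2L1 and MCL1, cannot be told apart.

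Summed by role, the anti-apoptotic genes reached an FPKM of 56.0 (51.9 to 60.2), the BH3-only genes 20.3 (16.4 to 24.1) and the effectors 6.15 (4.09 to 8.22). The intervals combine the deposited bounds of the genes, taken as independent. The anti-apoptotic sum was 9.11 times the effector sum (6.46 to 12.8), 2.77 times the BH3-only sum (2.25 to 3.40) and 2.12 times the effectors and BH3-only genes together (1.77 to 2.55). These sums cover 4 anti-apoptotic, 4 BH3-only and 2 effector genes, so the 9.11 also carries the difference in gene number. With medians over genes the ratio to effectors was 3.70. Nearly all of the anti-apoptotic sum came from MCL1 with 59.4% and BCL2L1 with 39.9%, while BCL2 contributed 0.734%. BID made up 55.0% of the BH3-only sum and BAX 68.5% of the effector sum. The role groups overlapped gene by gene, since the anti-apoptotic genes ranged from 0 to 33.3 and BCL2 and BCL2A1 lay below every effector and BH3-only gene. The direction therefore depended on how the genes were combined. The geometric mean of FPKM + 0.1 over the anti-apoptotic genes was 0.839 times that of the effectors and 0.691 times that of the BH3-only genes, and with a pseudocount of 1 these ratios were 1.48 and 1.20. Genes are not replicates of a role, and no test between roles was made.

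**Figure D2:**
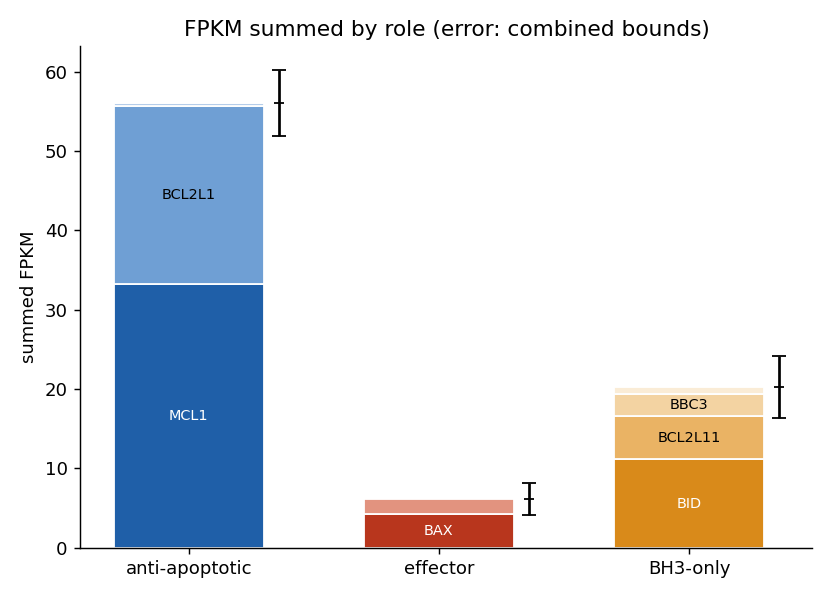
Summed FPKM of the 4 anti-apoptotic, 2 effector and 4 BH3-only genes in 1 library, stacked by gene from the highest at the bottom, with the axis starting at 0. Black bars give the interval combined from the deposited bounds. MCL1 and BCL2L1 fill almost the whole anti-apoptotic bar of 56.0, which stands above the BH3-only bar of 20.3 and the effector bar of 6.15.

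Other genes of the apoptosis pathway were described from 5 lists of 46 genes, of which 33 had an FPKM of at least 1, with a median of 5.94. Of the 11 other BCL2 family genes, 4 passed this level. They were BCL2L13, a mitochondrial outer membrane protein, at 19.5 (17.1 to 21.8), BCL2L12 at 6.88 (4.90 to 8.85), PMAIP1 at 4.61 (3.72 to 5.50) and BCL2L2 at 3.64 (2.75 to 4.53). BCL2L2 encodes the anti-apoptotic BCL-W and was 8.84 times as high as BCL2 (4.57 to 17.1). PMAIP1 encodes NOXA, a BH3-only protein that binds MCL1, and was 1.61 times as high as BBC3 (1.14 to 2.27). The remaining 7 genes were under 1, including the BH3-only genes BIK at 0.146, HRK at 0.154 and BMF at 0.164, the effector-like BOK at 0.189 and the anti-apoptotic BCL2L10, listed at 0. The median of this list was 0.189, below the 3.54 of the members.

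Downstream of mitochondria, all 9 genes of the apoptosome and caspase list had an FPKM of at least 1, with a median of 7.58. CYCS, which encodes cytochrome c, was highest at 96.2 (88.9 to 103), and its partner APAF1 had 5.65 (4.06 to 7.24). The initiator caspase gene CASP9 was among the lower genes of this list with 3.11 (1.88 to 4.33). The inhibitors of apoptosis and their antagonists had a median of 11.1, with 6 of 8 at or above 1. BIRC6 was highest at 42.1 (36.0 to 48.2), followed by DIABLO, whose product SMAC relieves caspase inhibition, at 20.3 (17.3 to 23.3) and BIRC5 (survivin) at 19.7 (16.9 to 22.4). BIRC3 had 0.358 (0 to 0.917) and BIRC7 was listed at 0. In the death receptor pathway, 6 of 8 genes passed and the median was 4.55. CFLAR, the inhibitor of caspase-8 activation, was highest at 29.5 (25.7 to 33.2), 9.16 times as high as the adaptor FADD (7.13 to 11.8). The TRAIL receptor gene TNFRSF10A was at 6.98 (5.90 to 8.05), whereas the receptor FAS was at 0.224 (0 to 0.918).

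Of 10 genes known to act on members of the family, 8 had an FPKM of at least 1. STAT5A had 48.5 (44.6 to 52.4) and STAT5B 19.2 (16.9 to 21.6). The ubiquitin ligase gene HUWE1, whose product targets MCL1 for degradation, had 40.2 (36.9 to 43.4), and USP9X, which removes ubiquitin from MCL1, had 21.1 (18.9 to 23.2). A lower value was found for FOXO3, an activator of BCL2L11, with 1.85 (1.59 to 2.12). FOXO1 had 0.253 (0 to 0.937) and TP73 0.462 (0.125 to 0.798).

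**Figure D3:**
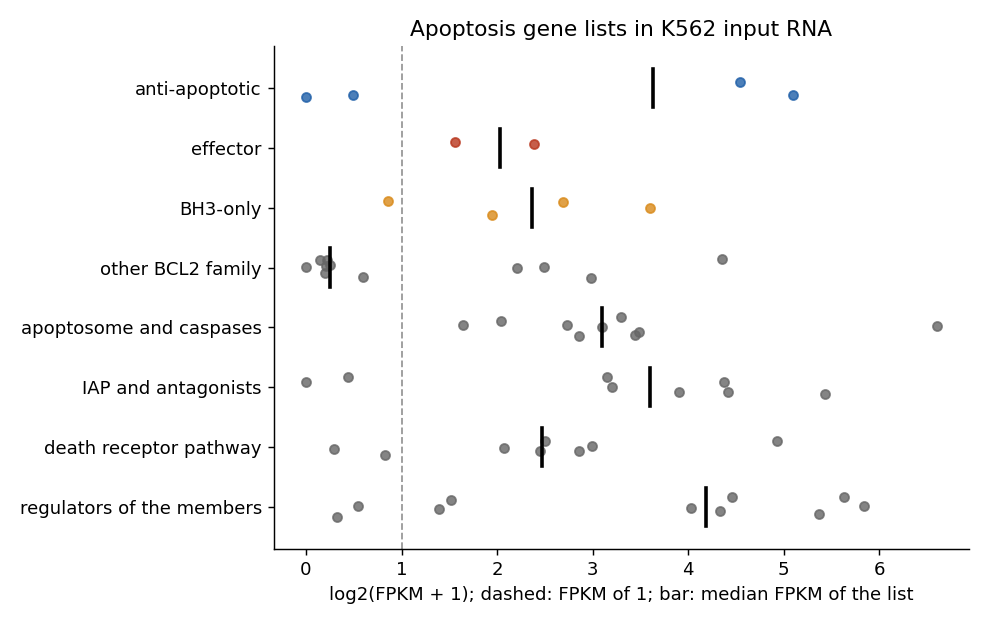
FPKM of the members by role and of 5 further apoptosis lists in 1 library of K562 input RNA, on the scale of log2(FPKM + 1), with 1 point per gene and no error shown. Black bars mark the median FPKM of a list and the dashed line an FPKM of 1. All 9 apoptosome and caspase genes lie to the right of the line, whereas 7 of the 11 other BCL2 family genes lie to its left.

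The cell line was checked by marker genes. All 10 erythroid markers, including HBG2, HBE1, GATA1 and TFRC, had an FPKM of at least 4.73. Of 11 markers of T cells, B cells, monocytes and fibroblasts, 3 reached 1, which were CD3D with 6.29, LYZ with 5.76 and COL1A2 with 1.25, while CD3E had 0.150 and CD14, CD79A and COL3A1 were listed at 0. CD3D and LYZ thus lay above the lowest erythroid markers, HBA2 with 5.16 and HBA1 with 4.73. Some entries share sequence with members. BAD is overlapped over 14643 bp by GPR137 on the opposite strand, which had an FPKM of 1.72 (0.472 to 2.97), above that of BAD. Entries on the opposite strand also overlap BCL2L1 and BAK1. ABALON covers 1903 bp of BCL2L1, including exon bases, and had an FPKM of 1.27 (0.730 to 1.80). GGNBP1 covers all 7747 bp of BAK1, with an upper bound of 0.509. The libraries were stranded, but whether cuffdiff used the strand is not given in the sources used here. Reads of these overlapping pairs may therefore not have been separated.

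Of the 10 members, 1 held any of the listed EZH2 RIP-seq fragments. The list used here is shorter than the full set of EZH2 fragments the study describes, and fragments outside it were not analysed here, so a member without a listed fragment is not shown to lack one. BCL2L1 held 4 of the 900 listed fragments, beside 0.582% of all table entries with at least 1 fragment when 50% of a fragment had to lie in the gene span. Of all table entries, 58 held 4 or more fragments, and CPED1 had the most with 18. Among 1271 other entries within 2-fold of BCL2L1 in both FPKM and span, 43 (3.38%) held a fragment and 4 held at least 4. That range was chosen after the values were seen. MCL1, BID, BCL2L11 and the other members held none of the listed fragments, also when any shared base or a flank of 10 kb on either side was allowed. The listed fragment nearest to another member lay 42844 bp outside BCL2L11. As listed with the FPKM, MCL1 spans 5188 bp and BCL2L1 59538 bp. GENCODE 44 gives a longer MCL1, from 150560895 to 150579738. The listed fragment nearest to MCL1 lay 23857003 bp from the span used here.

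All 4 fragments lay in a single intron of BCL2L1, from 31684589 to 31719344 on chromosome 20 of GRCh38, between merged exons of GENCODE 44. This intron takes up 58.4% of the gene, and the fragments covered 23.9% of it. None of their bases lay in an exon of any annotated gene. Numbered in the direction of transcription, which is the minus strand, fragment 1 spans 31717871 to 31718544 (674 bp), fragment 2 spans 31706804 to 31710562 (3759 bp), fragment 3 spans 31700091 to 31702073 (1983 bp) and fragment 4 spans 31695131 to 31697020 (1890 bp). Their near ends lay 5445, 13427, 21916 and 26969 bp from the start of the gene. Fragments 2, 3 and 4 also lay inside the intron of BCL2L1-AS1, an antisense RNA with an FPKM of 1.52 (0.279 to 2.76), and fragment 1 lay outside it. The counts as deposited do not say from which strand the reads of fragments 2, 3 and 4 came.

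**Figure D4:**
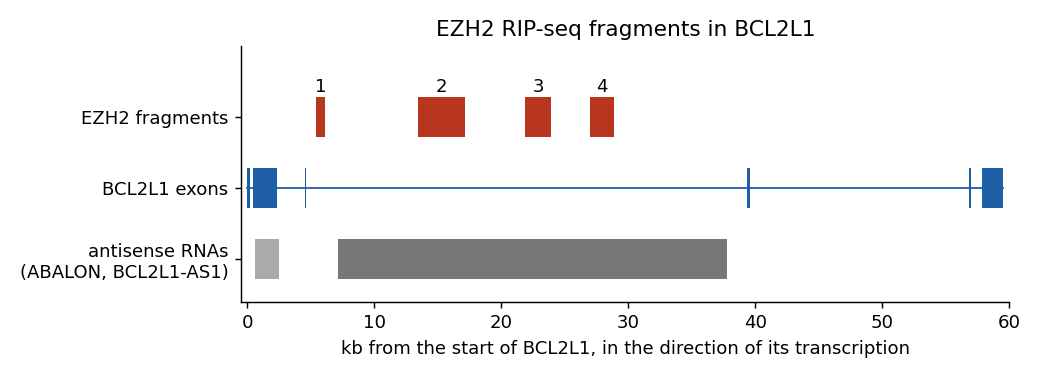
Map of BCL2L1 to scale, in kb from its annotated start in the direction of transcription, with merged GENCODE exons in blue, the 4 listed EZH2 RIP-seq fragments in red and the antisense genes ABALON (left) and BCL2L1-AS1 (right) in grey. The fragments lie in 1 intron, from 5445 bp to 28858 bp downstream of the start, and no fragment touches an exon.

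The middle 300 bases of fragment 1, which is free of antisense annotation, and of fragment 2, which had the most reads, are shown as the RNA strand of BCL2L1 in DNA letters, from chr20:31718058-31718357 and chr20:31708533-31708832 of GRCh38. Capitals mark runs of 3 or more G, because PRC2 is known to prefer G-rich RNA.
fragment 1: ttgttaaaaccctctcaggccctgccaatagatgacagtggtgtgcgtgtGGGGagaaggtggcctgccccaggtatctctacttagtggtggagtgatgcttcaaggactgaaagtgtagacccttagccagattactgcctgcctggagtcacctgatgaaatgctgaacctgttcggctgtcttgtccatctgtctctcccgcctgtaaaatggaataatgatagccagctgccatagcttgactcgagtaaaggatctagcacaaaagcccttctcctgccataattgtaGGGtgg
fragment 2: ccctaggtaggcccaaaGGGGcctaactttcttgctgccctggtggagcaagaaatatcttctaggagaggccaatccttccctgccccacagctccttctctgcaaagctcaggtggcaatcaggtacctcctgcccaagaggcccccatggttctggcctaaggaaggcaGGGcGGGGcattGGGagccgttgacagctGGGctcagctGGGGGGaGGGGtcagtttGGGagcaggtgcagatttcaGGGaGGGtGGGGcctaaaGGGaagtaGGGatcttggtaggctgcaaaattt

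These windows held 2 runs of G in fragment 1 and 13 in fragment 2, and the middle 300 bases of fragments 3 and 4 held 2 and 6. In 115 windows of 300 bases tiled across the whole intron on the same strand, the median was 4.0 runs, the highest was 10 and 90.4% of the windows held at least 2. GGG occurred in 99.1% of these windows, so its presence alone sets no window apart. Over their full length, the fragments contained 25.2% G and 51.0% G or A, compared with 22.9% G and 48.2% G or A in the rest of the intron. GGG occurred 19.3, 21.3, 15.6 and 21.2 times per kb over the full fragments 1 to 4, beside 16.1 in the rest of the intron. The 13 runs in the middle of fragment 2 therefore do not describe its whole length. By fragment, the share of G or A was 47.8%, 49.0%, 52.3% and 54.7% from fragment 1 to fragment 4. A run of G is a description of the sequence and not a binding site.

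The 4 fragments of BCL2L1 were read far more often in nuclear than in cytoplasmic RNA when the counts were taken as deposited. On fragment 1 there were 23 reads from the nucleus and 1 from the cytoplasm, which is a ratio of 23.0 (exact 95% interval 3.73 to 947). Fragment 2 had 118 and 6 reads (19.7, 8.77 to 54.7), fragment 3 had 42 and 5 (8.40, 3.33 to 27.2) and fragment 4 had 18 and 2 (9.0, 2.15 to 80.0). More nuclear reads were thus found on all 4, as on 96.2% of all 900 listed fragments. Added up, the 4 had 201 nuclear against 14 cytoplasmic reads, a quotient of 14.4 (8.36 to 26.7), and the other 896 fragments together had a ratio of 13.3, inside this interval. The 13.3 is a ratio of pooled reads, to which fragments with many reads contribute most. Median reads per listed fragment were 53.5 in nuclear and 2 in cytoplasmic RNA, relatively further apart than the pooled reads. How the 4 compare with a typical listed fragment was not tested. The intervals cover counting error only, and the totals of the libraries are unknown. Once the counts were divided by the total of their library on the 900 fragments (7929 to 106051 reads), the ratio over the 4 fragments was 1.08 (0.627 to 2.01), so an excess beyond that of the listed fragments as a whole was not detectable at this depth. On this scale fragment 3 was at 0.630 (0.250 to 2.04) and fragment 4 at 0.675 (0.162 to 6.0), so their direction turned within wide intervals.

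Reads on the BCL2L1 fragments were also more frequent in nuclear polyA- than in nuclear polyA+ RNA. On fragment 1 the polyA- library had 21 and the polyA+ library 8 reads (ratio 2.63, 1.12 to 6.85), and fragment 2 had 114 and 42 (2.71, 1.89 to 3.96). Fragment 3 had 81 and 34 reads (2.38, 1.58 to 3.67), and fragment 4 had 45 and 14 (3.21, 1.73 to 6.34). The polyA- count was the higher on all 4, as on 83.4% of the listed fragments. Over the 4 together, 261 and 98 reads gave a ratio of 2.66 (2.10 to 3.39), above the 1.83 of the other 896 fragments together. The 1.83 is a ratio of pooled reads, to which fragments with many reads contribute most. Median reads per listed fragment were 55.5 in polyA- and 14 in polyA+ RNA, relatively further apart than the pooled reads. The 4 fragments are therefore not shown to be more polyA- than a typical listed fragment. After the same division by library totals on the 900 fragments, the ratio over the 4 was 1.46 (1.15 to 1.86), again relative to pooled reads. By fragment it was 1.44 (0.611 to 3.75) on fragment 1 and 1.48 (1.03 to 2.17) on fragment 2. It was 1.30 (0.863 to 2.01) on fragment 3 and 1.76 (0.947 to 3.47) on fragment 4, so only the interval of fragment 2 lay above 1. The intervals cover counting error only, and whether BCL2L1 stands out from the spread between listed fragments was not tested. These values compare 1 library with 1 library and not the conditions.

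Within a library the density of reads can be compared between fragments without a scale. In nuclear RNA, the density was 34.1 reads per kb on fragment 1 (21.6 to 51.2), 31.4 on fragment 2 (26 to 37.6), 21.2 on fragment 3 (15.3 to 28.6) and 9.52 on fragment 4 (5.64 to 15.1), compared with a median of 27.7 over the other listed fragments. The interval of fragment 4 lay below those of the other 3 fragments. In polyA- RNA, the density was 31.2 reads per kb on fragment 1 (19.3 to 47.6), 30.3 on fragment 2 (25.0 to 36.4), 40.8 on fragment 3 (32.4 to 50.8) and 23.8 on fragment 4 (17.4 to 31.9). Fragment 4 was the lowest in both libraries, and in polyA- RNA its interval overlapped those of fragments 1 and 2 but not that of fragment 3. The densities in polyA+ RNA were 11.9, 11.2, 17.1 and 7.41 reads per kb from fragment 1 to fragment 4.

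**Figure D5:**
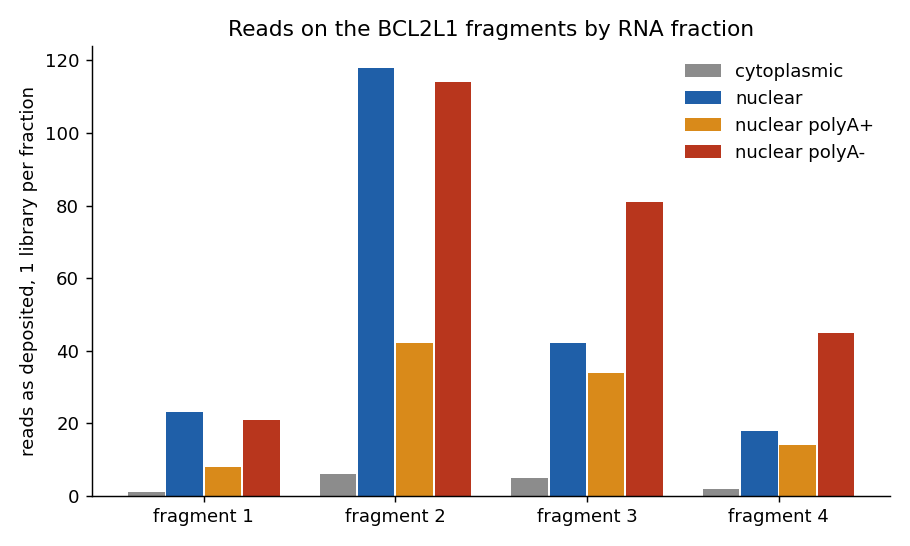
Reads as deposited on the 4 BCL2L1 fragments by RNA fraction, each of which is 1 library, with no error shown. On every fragment the cytoplasmic bar, from 1 to 6 reads, is the lowest, and the polyA- bar is above the polyA+ bar.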

How the data were processed

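The 10 members were taken by gene symbol from 1 library of RIP-seq input RNA, and reads on 900 listed fragments from 4 fraction libraries (7929 to 106051 reads per library on these fragments). According to the methods, the authors trimmed reads with TrimGalore, used STAR for the mapping (GRCh38, GENCODE 26), and kept deduplicated alignments of mapping quality 20 or more. The deposited FPKM and bounds were made by the authors with cuffdiff, and the deposited read counts with featureCounts, without normalization. RIP-seq peaks were defined in the methods by enrichment over IgG in both replicates, with exonic and non-exonic alignments handled apart. Tool versions are not given in the sources used here.

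Gene spans were read from the FPKM table, with starts shifted to count from 1. Of its entries, 57511 (98.7%) matched GENCODE 44 by identifier, which gave gene types, strands and exons on GRCh38. Fragments were assigned to every gene whose span held 50% or more of their bases. Sums of FPKM carry the root of the summed squares of the half-widths, and ratios of FPKM an interval on the log scale. The latter is approximate where bounds are wide relative to the FPKM, as for BCL2, BAX and BCL2L11. It can then leave out ratios that the deposited bounds allow. Ratios of counts carry exact 95% Clopper-Pearson intervals and densities exact Poisson intervals, which cover counting error only. With 1 library per condition no test was made. All members were described, and of the other lists the highest and lowest genes or those needed as background. The members and lists were chosen with earlier results of these data known. Protein and promoter sequences were not used here, and some genes of the other lists are not reported here. Python 3.11.15, pandas 2.3.3, scipy 1.17.1 and matplotlib 3.10.9 were used.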

Additional observations from a re-analysis of the deposited data

How the results depend on the processing

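The ratio of anti-apoptotic to effector FPKM, 9.11 as sums, moved to 3.70 with medians and to 1.48 with geometric means of FPKM + 1, and reversed to 0.839 with a pseudocount of 0.1. The ratio to BH3-only genes, 2.77 as sums, moved to 1.20 with FPKM + 1 and reversed to 0.691 with a pseudocount of 0.1. BCL2 at 0.411 and BCL2A1 at 0 enter these geometric means with the same weight as MCL1. Leaving out the highest gene of each role, keeping genes at an FPKM of at least 1, or adding BCL2L2, BCL2L10, BOK, PMAIP1, BIK, BMF and HRK, a choice made after seeing the data, gave 9.04 to 11.7 for effectors and 2.36 to 2.86 for BH3-only genes. The members at the FPKM threshold numbered 8 at 0.5, 6 at 2 and 7 by the lower bound. With libraries scaled to their sums over the listed fragments, the nuclear to cytoplasmic ratio of the 4 BCL2L1 fragments moved to 1.08 and reversed for fragment 3 (0.630) and fragment 4 (0.675), and the polyA- to polyA+ ratio moved to 1.46. Among entries above 0 or protein-coding entries, 9 of the 10 members took a lower place than among all entries. For entries above 0 this follows by construction, because only entries at 0 were left out and BCL2A1 is itself at 0. No paired analysis was possible because each RNA measured here has 1 library. For the same reason no replicate could be left out. The input depth is unknown, and the cytoplasmic counts of 1 to 6 reads limit each fragment's ratio.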
